A study of Mus musculus with 25 samples.

Results

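The Hox genes were described across 5 cultured lines of mouse melanoma as a family of 38 genes, listed by cluster (A to D) and paralog number out of 55385 genes in the count tables. The family was chosen by name and not by its values, though with earlier results of these data known. It had 10 members in cluster A, 10 in cluster B, 9 in cluster C and 9 in cluster D. Each line was profiled by RNA sequencing of 5 cultures at 50% confluency, which gave 25 libraries. WT31 came from mice with Nras Q61K under the tyrosinase promoter on an INK4a-/- background, RET from mice with a RET transgene under the metallothionein-I promoter, and HCmel12 from a primary melanoma of HGF-CDK4(R24C) mice. D4M came from mice with the inducible Tyr::CreER and the BrafCA allele among others, and B16F10 luc2 is a purchased luciferase-tagged form of B16F10. The lines received no drug and each is 1 line, so line, driver and mouse of origin cannot be told apart. WT31, B16F10 luc2 and RET shared one RPMI medium with 10% serum, HCmel12 had a supplemented RPMI with 10% serum and D4M had Advanced DMEM/F-12 with 5% serum, so medium and line cannot be told apart for the last 2 lines. The study called WT31 high, B16F10 luc2 and RET intermediate, and D4M and HCmel12 low metastatic to the liver, and it grouped the first 3 as HIM-melanoma and the others as LM-melanoma.

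Hox genes encode homeodomain transcription factors that give cells along the body axis their regional identity. Genes at one end of a cluster (low paralog numbers) are switched on early and in anterior segments, those at the other end (high paralog numbers) late and in posterior segments and distal limb buds, and Polycomb and Trithorax complexes hold the resulting pattern through cell division. Skin fibroblasts and other adult cells keep such a pattern as a record of the body site they came from. Melanocytes arise from the neural crest, whose most anterior part forms without Hox gene activity and whose trunk part carries it, and several Hox genes are also switched on aberrantly in cancer.

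The libraries held 24199083 to 25843286 estimated counts. Values per library are given as CPM, the counts as a proportion of the library total scaled by TMM, and levels of different genes are compared only as TPM, the matching unit that is corrected for transcript length, which covered 4 D4M libraries. The 10 melanocyte markers summed to 12635 to 18516 CPM in HCmel12, 15640.1 to 19614 CPM in RET, 17986 to 25451 CPM in WT31, 28459 to 31543 CPM in B16F10 luc2 and 26.7 to 83.3 CPM in D4M, where 5 of the 10 reached 1 CPM. The 7 fibroblast markers summed to 679 to 1325 CPM in D4M, with Lum at 0, and to at most 88.8 CPM in the other lines. Endothelial markers summed to 25.4 to 39.1 CPM in HCmel12, nearly all of it Kdr, with Cdh5 at 0. Keratinocyte and immune markers each summed to at most 15.99 CPM in any library. These marker differences run along every Hox difference that involves D4M or HCmel12 and their part in it was not tested. In such bulk libraries fewer cells with a transcript and less of it per cell cannot be told apart. D4M replicate 1 stood apart in holding 10 genes that no other D4M library detected and that reached 50 CPM in another line. By the chi-square per gene between libraries of 1 line, HCmel12 replicate 4 (55.4 to 91.02 against its replicates, 14.8 to 25.3 among the others) and WT31 replicate 5 (32.3 to 78.4 and 14.04 to 27.3) stood furthest from their lines. D4M replicate 1 did not stand out by this measure (15.7 to 22.5 and 22.7 to 33.2). HCmel12 replicate 4 holds the highest Hoxb9 value of its line and WT31 replicate 5 the lowest. Without HCmel12 replicate 4, the calls of Hoxa2 in WT31 against HCmel12 and of Hoxb9 in RET against HCmel12 were lost. Without WT31 replicate 5, those of Hoxa2 and Hoxb3 in WT31 against HCmel12 and of Hoxd8 in B16F10 luc2 against RET were lost.

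The promoters of the 3 Hox genes that led the family in B16F10 luc2 and RET, in D4M and in HCmel12 are shown as windows of 300 bases, 250 before and 50 after the RefSeq start in GRCm38.p6, with each CpG in capitals. Hoxa10 lies at chr6:52240805-52241104, minus strand, Hoxd8 at chr2:74704365-74704664, plus strand and Hoxd13 at chr2:74667975-74668274, plus strand. The table of sequences held no entry for Hoxb9, which led in WT31.
Hoxa10: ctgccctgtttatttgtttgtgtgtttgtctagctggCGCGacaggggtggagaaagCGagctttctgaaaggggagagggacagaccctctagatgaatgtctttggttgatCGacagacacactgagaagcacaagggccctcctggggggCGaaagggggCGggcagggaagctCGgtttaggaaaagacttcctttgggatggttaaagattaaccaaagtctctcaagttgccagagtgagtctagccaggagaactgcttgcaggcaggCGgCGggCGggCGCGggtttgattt
Hoxd8: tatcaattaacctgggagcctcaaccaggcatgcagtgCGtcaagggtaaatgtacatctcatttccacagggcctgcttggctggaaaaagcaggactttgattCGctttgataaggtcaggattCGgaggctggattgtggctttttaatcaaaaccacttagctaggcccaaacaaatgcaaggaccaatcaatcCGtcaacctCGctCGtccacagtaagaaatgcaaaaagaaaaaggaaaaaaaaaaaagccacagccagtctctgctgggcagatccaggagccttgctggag
Hoxd13: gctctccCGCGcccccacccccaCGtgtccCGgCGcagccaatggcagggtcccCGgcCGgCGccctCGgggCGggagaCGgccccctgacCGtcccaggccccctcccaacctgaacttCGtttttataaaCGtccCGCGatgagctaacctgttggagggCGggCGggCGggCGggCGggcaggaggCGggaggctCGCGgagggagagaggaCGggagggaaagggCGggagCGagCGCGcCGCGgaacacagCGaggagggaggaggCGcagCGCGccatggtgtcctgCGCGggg

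The Hoxd13 window held 37 CpGs and a G and C content of 74.3%, the Hoxa10 window 12 CpGs and 54.3%, and the Hoxd8 window 6 CpGs and 46.7%. Over the 24 promoter windows found for 22 members the median was 14.5 CpGs, against 7 over all 32851 windows, so that Hoxd13 stood above and Hoxa10 and Hoxd8 below the median of their family. The letters TGACAG, a MEIS site, were sought on both strands and stood in the windows of Hoxa2 and Hoxa3, which is 2 of 24 where 19.2% of all windows held them. The letters TGATNNAT, a PBX-HOX composite site, stood in 4 of 24 windows (Hoxa2, Hoxb1, Hoxb8 and Hoxd11), where 8.85% of all windows held them. None of the 3 printed windows held either motif.

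Every line transcribed a different subset of the family. A mean of at least 1 TPM was reached by 16 members in B16F10 luc2, 11 in RET, 11 in D4M, 6 in WT31 and 6 in HCmel12. No member reached it in all 5 lines, while Hoxa5, Hoxa7, Hoxb9 and Hoxd4 did in 4 lines, 4 members in 3 lines, 6 in 2 lines and 10 in a single line. The remaining 14 members stayed under 1 TPM everywhere. Of these, Hoxa13, Hoxc11, Hoxc12 and Hoxc13 had no count in any of the 25 libraries, which allows up to 3 counts per library or 0.114 to 0.133 CPM by counting error alone. The other 10 (Hoxb1, Hoxb2, Hoxc5, Hoxc8, Hoxc9, Hoxc10, Hoxd1, Hoxd10, Hoxd11 and Hoxd12) had at most 11 counts in a library, a maximum set by Hoxd10 in D4M. The plot of all members by library shows these subsets as blocks. Some end at a border between lines, and others, such as Hoxa10, run across that between B16F10 luc2 and RET. The subsets also depend on the cut, since Hoxa2 had 1.17 TPM in RET and 0.846 TPM in B16F10 luc2.

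**Figure D1:**
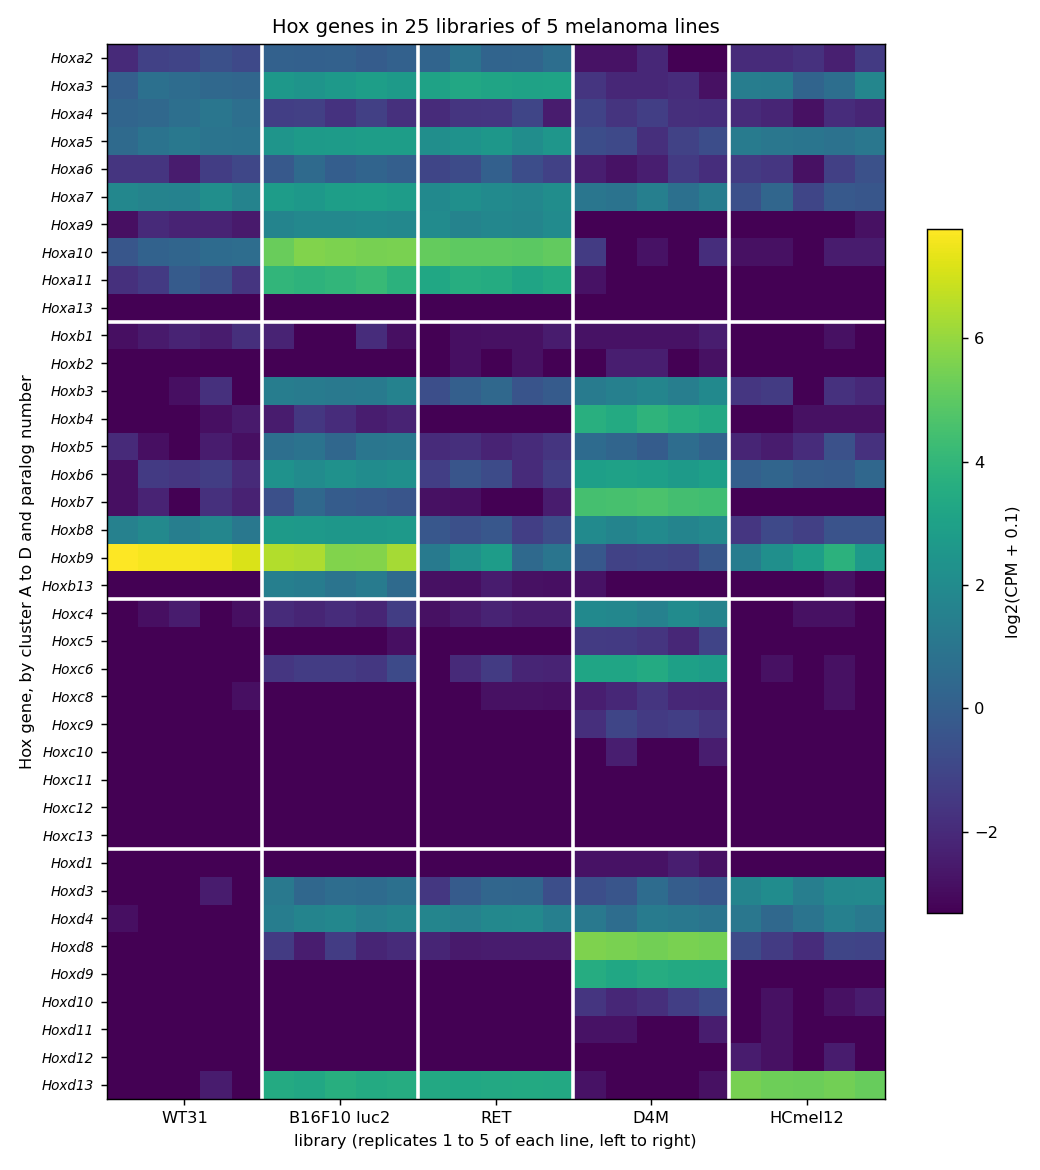
Heat map of log2(CPM + 0.1) for 38 Hox genes (vertical axis, by cluster A to D and paralog number) in 25 libraries (horizontal axis, 5 replicates of each line). Bright blocks lie at Hoxb9 in WT31, at Hoxa10 in B16F10 luc2 and RET, at Hoxb7 and Hoxd8 in D4M and at Hoxd13 in HCmel12, and cluster C is dark outside D4M.

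Summed over the family, Hox transcripts came to 144 ± 12.4 TPM (SD, n = 5) in B16F10 luc2, 136 ± 17.9 TPM (n = 5) in WT31, 102 ± 4.82 TPM (n = 4) in D4M, 73.5 ± 5.43 TPM (n = 5) in RET and 39.9 ± 2.997 TPM (n = 5) in HCmel12. A few genes carried most of each sum. Hoxb9 alone made up 90.7% of it in WT31, Hoxd13 60.6% in HCmel12, Hoxa10 43.9% in RET and 30.8% in B16F10 luc2, and Hoxd8 34.5% in D4M. By cluster, WT31 was a HoxB line (92.6% of its Hox sum) and RET a HoxA line (81.7%), while HCmel12 drew 73.9% from HoxD. B16F10 luc2 drew 55.1% from HoxA and 37.2% from HoxB, and D4M 43.6% from HoxD, 41.7% from HoxB, 12.3% from HoxC and 2.38% from HoxA. HoxC contributed under 1% in each of the other 4 lines, at most 0.318% in B16F10 luc2.

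**Figure D2:**
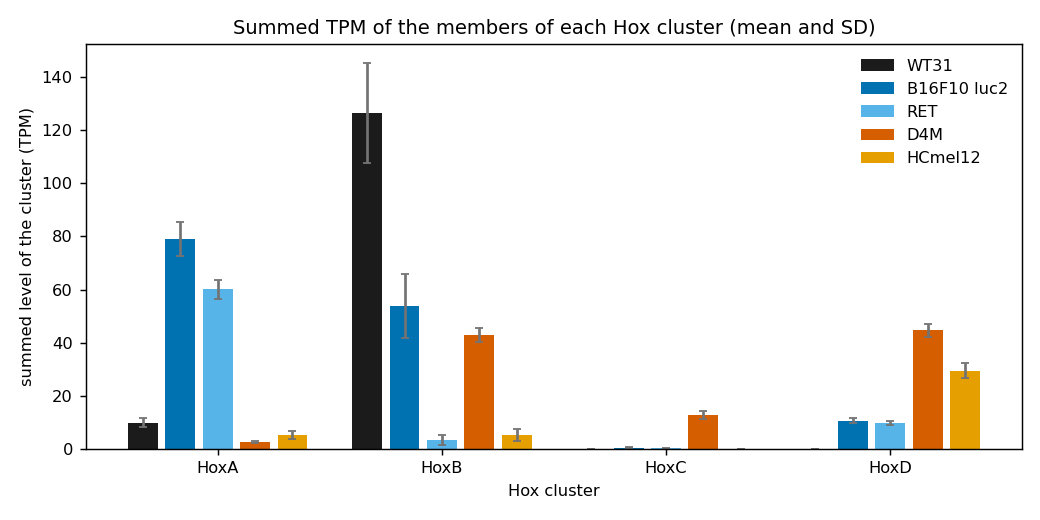
Bars give the mean summed TPM (vertical axis) of the members of each Hox cluster (horizontal axis) by line, and error bars the SD over 5 libraries (4 in D4M). HoxA is highest in B16F10 luc2 and RET, HoxB in WT31, and HoxC and HoxD in D4M, with HoxD next highest in HCmel12.

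The paralog number of the highest member of a cluster was shared by some lines and differed between others. In HoxA, both B16F10 luc2 and RET had their maximum at Hoxa10 and kept Hoxa11 above 5 TPM, whereas WT31, D4M and HCmel12 had maxima at Hoxa7, Hoxa7 and Hoxa3. In HoxB, the maximum was Hoxb9 in WT31, B16F10 luc2, RET and HCmel12, and Hoxb7 in D4M. In HoxD, the maximum was Hoxd13 in B16F10 luc2, RET and HCmel12 and Hoxd8 in D4M. In B16F10 luc2, RET and HCmel12, the next member that reached 1 TPM was Hoxd4. The genes between them (Hoxd8 to Hoxd12) were silent or nearly silent there, with Hoxd8 at 0.22, 0.074 and 0.24 TPM. WT31 had no HoxD member above 0.0111 TPM. No posterior member (groups 10 to 13) reached 1 TPM in D4M, where the most posterior one at this level was Hoxd9, while that of WT31 was Hoxa10 and those of B16F10 luc2, RET and HCmel12 were paralogs of group 13.

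**Figure D3:**
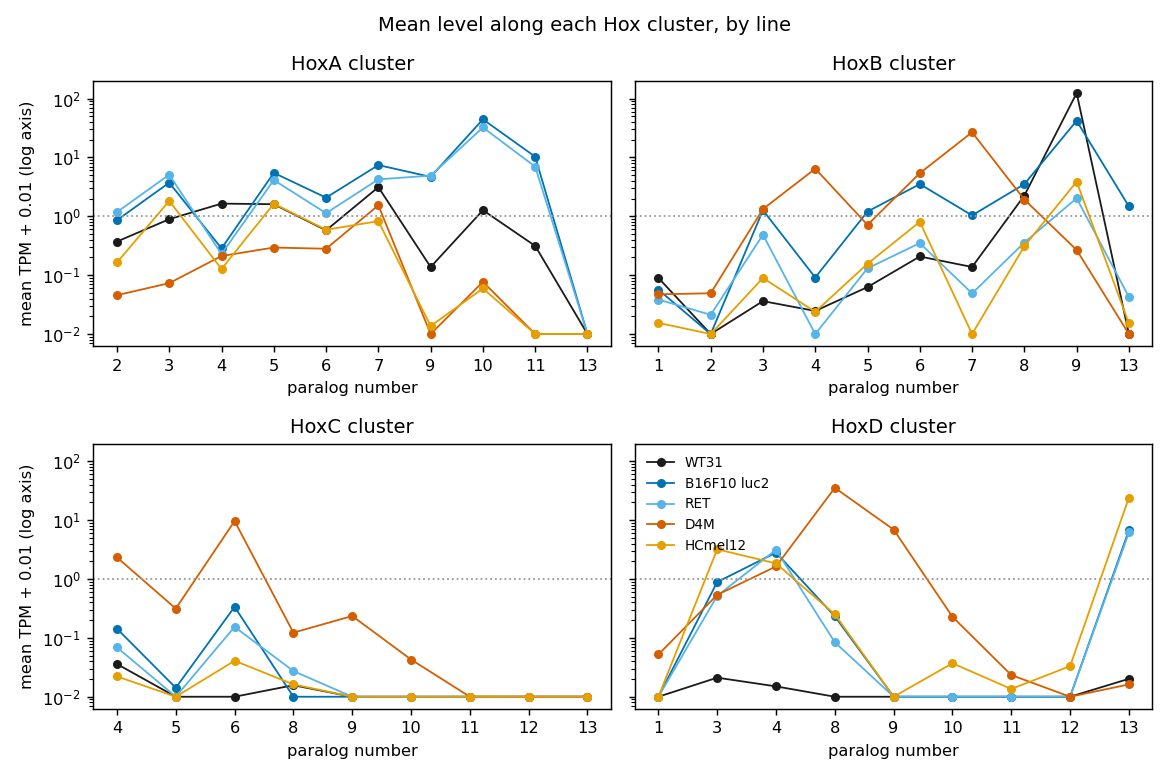
Mean TPM + 0.01 on a log axis (vertical) against paralog number (horizontal) in each Hox cluster, 1 coloured line per melanoma line, with a dotted line at 1 TPM. B16F10 luc2 and RET run together along HoxA and HoxD and separate along HoxB, D4M peaks at Hoxb7, Hoxc6 and Hoxd8, and WT31 peaks at Hoxb9.

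The 24 members that reached 1 TPM in some line were the 24 that passed the filter on low counts and were tested with limma. Since most entered the test through the line where they are high, their number called is a description and no support. Every library of a member's highest line lay above every library of the other lines for 18 of the 24, where this held for 45.0% of all 15247 genes tested. The exceptions were Hoxa5, Hoxa6, Hoxa9, Hoxb3, Hoxb5 and Hoxd4. The same limit applies to this share. A member that enters through 1 high line and is nearly silent elsewhere, such as Hoxb4, Hoxb13 or Hoxd9, is almost bound to separate. The contrast with all genes is therefore also a description and no support.

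In cluster A (chr6:52162417-52260880, GRCm38, minus strand), the anterior genes Hoxa2 and Hoxa3 were highest in RET, followed by B16F10 luc2. Hoxa2, which patterns the hindbrain and branchial arches, had 1.08, 1.77, 1.09, 1.13 and 1.52 CPM in RET replicates 1 to 5, 0.825 to 1.001 CPM in B16F10 luc2 and 0 to 0.543 CPM in the other lines. RET and B16F10 luc2 did not differ by the test (log2 fold change of 0.43 ± 0.25 (SE), adjusted p = 0.155), and B16F10 luc2 was above WT31 (log2 fold change of 1.42 ± 0.30 (SE), adjusted p = 1.78e-04). Hoxa3, needed for the thymus and parathyroid, had 8.19, 9.95, 8.84, 8.17 and 8.44 CPM in RET, 5.92, 5.25, 6.23, 7.22 and 6.48 CPM in B16F10 luc2 and 2.47, 2.39, 1.09, 1.52 and 3.28 CPM in HCmel12. RET was above B16F10 luc2 (log2 fold change of 0.49 ± 0.14 (SE), adjusted p = 0.004898), B16F10 luc2 above HCmel12 (log2 fold change of 1.62 ± 0.19 (SE), adjusted p = 4.34e-08), and WT31 (0.935 to 1.61 CPM) well above D4M (0.0426 to 0.2299 CPM). Libraries of HCmel12 and WT31 overlapped although the means differed (log2 fold change of 0.67 ± 0.25 (SE), adjusted p = 0.0188, with an adjusted p of up to 0.0734 when 1 library was left out). The call was lost without WT31 replicate 1 or HCmel12 replicate 5. Hoxa4, a gene of the cervical and upper thoracic axis, was the one HoxA member that was highest in WT31, with 1.14, 1.25, 1.55, 1.96 and 1.55 CPM there and 0.0405 to 0.4003 CPM over the other lines. WT31 exceeded the next line (log2 fold change of 2.36 ± 0.29 (SE), adjusted p = 3.92e-08). Of the 4 other lines, B16F10 luc2 (log2 fold change of 1.13 ± 0.38 (SE), adjusted p = 0.0106) and D4M (log2 fold change of 0.98 ± 0.39 (SE), adjusted p = 0.0254, with an adjusted p of up to 0.102 when 1 library was left out) were above HCmel12, and the remaining pairs did not pass the test. The D4M call was lost without D4M replicate 1, D4M replicate 3 or HCmel12 replicate 3.

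Hoxa5 and Hoxa7 reached 1 TPM in 4 lines, more than any other member of the cluster. Hoxa5, which is required in the developing lung, had 5.32, 6.43, 6.76, 7.14 and 7.15 CPM in B16F10 luc2, 4.35, 4.94, 5.71, 4.203 and 5.56 CPM in RET, 1.33, 1.75, 2.095, 1.81 and 1.77 CPM in WT31 and 2.33, 2.03, 1.86, 1.696 and 2.03 CPM in HCmel12. Libraries of B16F10 luc2 and RET overlapped although the means differed (log2 fold change of 0.41 ± 0.12 (SE), adjusted p = 0.00676), HCmel12 and WT31 did not differ by the test (log2 fold change of 0.19 ± 0.18 (SE), adjusted p = 0.352), and D4M lay below all of them at 0.178 to 0.511 CPM. Hoxa6, a thoracic paralog, had 0.754, 1.33, 0.907, 1.07 and 0.923 CPM in B16F10 luc2 and 0.395, 0.483, 0.946, 0.5204 and 0.347 CPM in RET, where replicate 3 stood above the other RET libraries, and 0.0405 to 0.5695 CPM over WT31, D4M and HCmel12. The difference between these lines passed the threshold (log2 fold change of 0.93 ± 0.37 (SE), adjusted p = 0.03802, with an adjusted p of up to 0.1005 when 1 library was left out) and was lost in 7 of the 25 fits that left out 1 library, namely B16F10 luc2 replicates 2, 4 and 5 and RET replicates 1, 2, 4 and 5. Hoxa7, a trunk gene that is co-activated with Hoxa9 in leukaemia, had 6.85, 5.85, 7.28, 7.61 and 6.98 CPM in B16F10 luc2, 3.72, 4.503, 3.88, 3.42 and 4.19 CPM in RET, 3.37, 2.98, 2.94, 4.31 and 3.03 CPM in WT31 and 1.93, 1.77, 2.67, 1.599 and 2.42 CPM in D4M. All B16F10 luc2 libraries lay above the rest (log2 fold change of 0.81 ± 0.13 (SE), adjusted p = 1.25e-05 against RET), RET and WT31 did not differ by the test (log2 fold change of 0.26 ± 0.15 (SE), adjusted p = 0.127), and the lowest line was HCmel12 with 0.405 to 1.17 CPM.

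Within cluster A, Hoxa9, Hoxa10 and Hoxa11 had the widest fitted differences between lines. Hoxa9, a regulator of blood stem cells, had 4.03, 3.01, 3.43, 3.16 and 3.98 CPM in RET and 3.095, 3.48, 3.505, 3.797 and 3.54 CPM in B16F10 luc2, which overlapped throughout (log2 fold change of 0.0081 ± 0.12 (SE), adjusted p = 0.964). WT31 had 1 to 4 counts per library, HCmel12 at most 1 and D4M none, so that RET was at least 26.4-fold higher and B16F10 luc2 at least 26.2-fold higher than D4M against a floor of 3 counts per library. Hoxa10 (ENSMUSG00000000938.11, chr6:52231197-52240854), which patterns the lumbar axis and the uterus, had 37.7, 50.8, 47.5, 45.4 and 45.8 CPM in B16F10 luc2, 35.7, 32.1, 32.4, 31.4 and 34.5 CPM in RET and 0.683, 1.03, 1.13, 1.38 and 1.48 CPM in WT31. B16F10 luc2 was above RET (log2 fold change of 0.45 ± 0.10 (SE), adjusted p = 3.15e-04), RET was far above WT31 (log2 fold change of 4.89 ± 0.24 (SE), adjusted p = 1.11e-15), and D4M and HCmel12 had 11 and 6 counts in all over their 5 libraries. Of those 11 D4M counts, 6 were in replicate 1, the D4M library with genes detected in no other. Hoxa11, a gene of the forearm, kidney and uterus, had 15.7, 14.4, 15.5, 17.5 and 13.9 CPM in B16F10 luc2 and 9.55, 11.8, 11.3, 8.74 and 10.5 CPM in RET, again with B16F10 luc2 higher (log2 fold change of 0.57 ± 0.10 (SE), adjusted p = 4.82e-05). WT31 had 0.1898 to 0.815 CPM, D4M 1 count and HCmel12 none. By their means, B16F10 luc2 was at least 127-fold and RET at least 85.8-fold higher than HCmel12. The WT31 mean was 3.43-fold above the HCmel12 floor of 0.121 CPM, though its lowest library lay nearer to that floor.

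In cluster B (chr11:96194316-96368256, plus strand), D4M was highest at Hoxb3, Hoxb4, Hoxb6 and Hoxb7 and B16F10 luc2 at Hoxb5. Hoxb3, a hindbrain gene, had 2.36, 2.76, 3.21, 2.58 and 3.75 CPM in D4M and 2.46, 2.35, 2.14, 2.23 and 2.88 CPM in B16F10 luc2, which did not differ by the test (log2 fold change of 0.27 ± 0.26 (SE), adjusted p = 0.359). RET, at 0.542 to 1.26 CPM, was lower than B16F10 luc2 (log2 fold change of 1.56 ± 0.33 (SE), adjusted p = 2.79e-04) and WT31 and HCmel12 ranged over 0 to 0.279 CPM. Hoxb4, known for expanding blood stem cells, was a D4M gene, with 12.5, 10.98, 14.7, 11.8 and 10.2 CPM there, 0 to 0.249 CPM over WT31, B16F10 luc2 and HCmel12 and no count in RET. D4M was at least 103-fold higher than RET and exceeded the next line, B16F10 luc2, by a log2 fold change of 6.35 ± 0.31 (SE), adjusted p = 3.61e-16. Hoxb5, a gene of the neural crest of the gut, had 1.55, 1.78, 1.196, 1.94 and 2.04 CPM in B16F10 luc2 and 1.38, 1.11, 0.846, 1.47 and 1.06 CPM in D4M, which overlapped (log2 fold change of 0.53 ± 0.26 (SE), adjusted p = 0.0637), and both were above HCmel12, RET and WT31, where it ranged over 0 to 0.565 CPM. Hoxb6, a thoracic gene, had 7.59, 7.96, 7.61, 6.57 and 7.54 CPM in D4M and 4.92, 4.02, 4.74, 4.09 and 4.46 CPM in B16F10 luc2, with no overlap (log2 fold change of 0.74 ± 0.15 (SE), adjusted p = 5.62e-05). HCmel12 (0.808 to 1.22 CPM) followed, then RET (0.1601 to 0.669 CPM) and WT31 (0.03795 to 0.308 CPM). Hoxb7 (ENSMUSG00000038721.8, chr11:96286623-96290162), an activator of the growth factor gene Fgf2 in human melanoma, had 22.1, 23.5, 24.7, 21.9 and 20.4 CPM in D4M and 0.556, 1.24, 0.825, 0.743 and 0.654 CPM in B16F10 luc2. D4M exceeded B16F10 luc2 by a log2 fold change of 4.83 ± 0.23 (SE), adjusted p = 1.82e-16, and B16F10 luc2 exceeded WT31 (0 to 0.192 CPM) by a log2 fold change of 3.24 ± 0.43 (SE), adjusted p = 1.79e-07. RET had at most 2 counts of Hoxb7 in a library (0 to 0.0772 CPM). HCmel12 had none, so D4M was at least 186-fold and B16F10 luc2 at least 6.65-fold higher.

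The order of the lines changed between Hoxb8 and Hoxb13. Hoxb8, which keeps myeloid progenitors immature, had 6.51, 6.01, 5.69, 5.69 and 6.11 CPM in B16F10 luc2, 3.86, 3.07, 3.87, 3.07 and 3.58 CPM in D4M and 2.85, 3.57, 2.56, 3.31 and 2.07 CPM in WT31. B16F10 luc2 was above D4M (log2 fold change of 0.79 ± 0.14 (SE), adjusted p = 1.65e-05), D4M and WT31 did not differ by the test (log2 fold change of 0.30 ± 0.16 (SE), adjusted p = 0.0893), and RET and HCmel12 ranged over 0.241 to 0.712 CPM. Hoxb9 (ENSMUSG00000020875.9, chr11:96271457-96276595), a thoracic gene that helps place the forelimb and pattern the ribs, was the most abundant member in any line at 124 ± 18.6 TPM in WT31. Its libraries there had 217, 198, 194, 189 and 141 CPM, all above the 90.2, 84.3, 50.6, 52.1 and 76.98 CPM of B16F10 luc2 (log2 fold change of 1.43 ± 0.18 (SE), adjusted p = 9.11e-08). Without WT31 replicate 5, its lowest, the log2 fold change was 1.53. HCmel12 followed with 2.45, 4.42, 7.22, 13.9 and 6.26 CPM and was well below B16F10 luc2 (log2 fold change of 3.56 ± 0.31 (SE), adjusted p = 1.32e-10), and RET had 2.17, 4.68, 6.86, 1.28 and 1.85 CPM. Counts of Hoxb9 spread from 61 to 343 between HCmel12 libraries and from 32 to 174 between RET libraries, so that these lines overlapped. Their difference passed the threshold narrowly (log2 fold change of 1.06 ± 0.46 (SE), adjusted p = 0.0478, with an adjusted p of up to 0.161 when 1 library was left out) and held in 10 of the 25 fits without 1 library, being lost without any of the 5 D4M libraries, RET replicates 1, 4 and 5, HCmel12 replicates 3, 4 and 5, WT31 replicates 2, 3 and 4, or B16F10 luc2 replicate 5. D4M was lowest with 0.355 to 0.736 CPM. Hoxb13, a gene of the tail bud and prostate, was found in B16F10 luc2, with 2.698, 2.405, 1.81, 2.31 and 1.35 CPM, and had at most 2 counts in a library elsewhere. WT31 had none, so B16F10 luc2 was at least 18.5-fold higher.

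**Figure D4:**
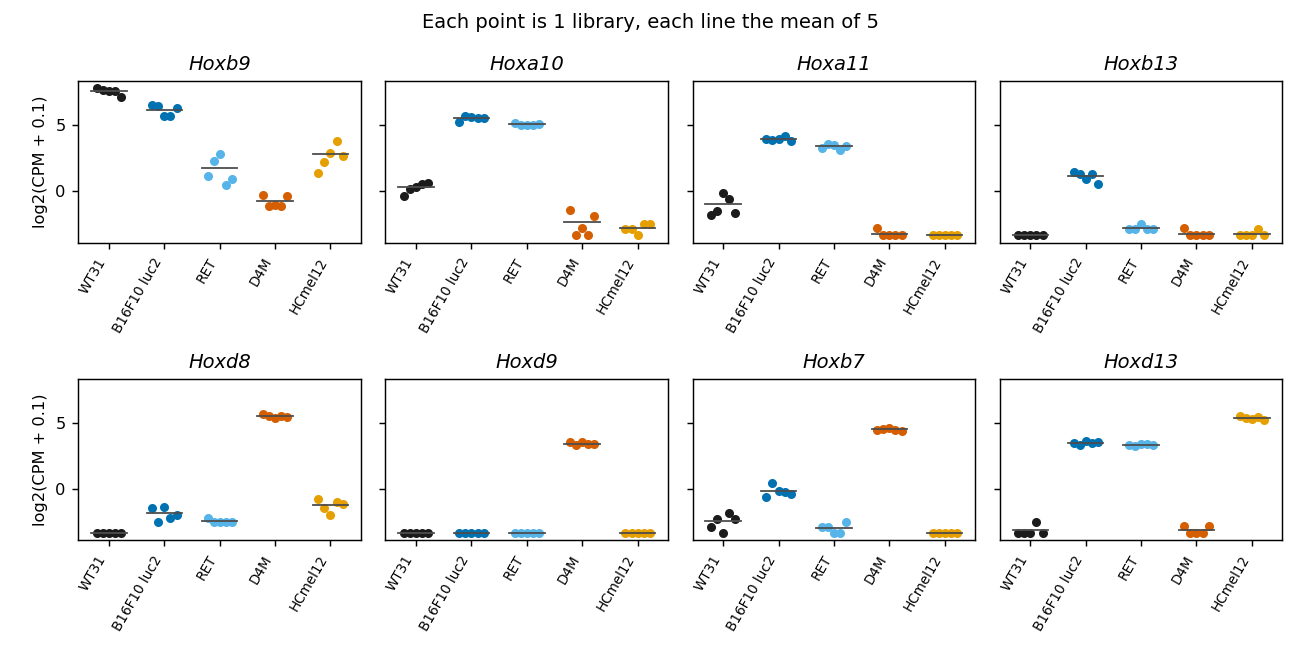
Each point is log2(CPM + 0.1) (vertical axis) of 1 library of the line on the horizontal axis for 8 Hox genes, and each bar the value of the mean of 5 libraries. Points at the bottom edge have no count. Hoxb9 falls from WT31 to D4M with wide spread in RET and HCmel12, Hoxa10 and Hoxa11 are high in B16F10 luc2 and RET, Hoxb7, Hoxd8 and Hoxd9 in D4M, and Hoxd13 is highest in HCmel12.

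In cluster C (chr15:102921103-103036852, plus strand), only Hoxc4 and Hoxc6 reached 1 TPM, and only in D4M. Hoxc4, a gene of the neck and upper thorax, had 3.77, 3.38, 2.85, 3.998 and 3.02 CPM in D4M and 0 to 0.308 CPM over the other lines. D4M exceeded B16F10 luc2, the next line, by a log2 fold change of 4.18 ± 0.29 (SE), adjusted p = 4.86e-13. Hoxc6, a gene of the thoracic axis and of forelimb-level motor neurons, had 9.15, 9.07, 10.95, 7.82 and 6.9002 CPM in D4M, 0.238 to 0.461 CPM in B16F10 luc2, 0 to 0.276 CPM in RET and 0 to 0.0404 CPM in HCmel12. D4M exceeded B16F10 luc2 by a log2 fold change of 4.77 ± 0.31 (SE), adjusted p = 2.33e-13 and WT31, which had no count, by at least 76.9-fold. Hoxc5, Hoxc8 and Hoxc9 were also highest in D4M, with at most 9, 5 and 9 counts in a library, and were not tested.

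In cluster D (chr2:74668310-74765142, plus strand), WT31 had at most 2 counts of any member in a library and the 4 other lines differed in which genes were on. Hoxd3, a partner of Hoxa3 in the upper cervical axis, had 3.14, 4.14, 2.55, 3.56 and 3.63 CPM in HCmel12 and 0.243 to 2.12 CPM over B16F10 luc2, RET and D4M. HCmel12 was above B16F10 luc2 in every library (log2 fold change of 1.13 ± 0.25 (SE), adjusted p = 2.30e-04). Hoxd4, a gene of the lower hindbrain and neck, was on in 4 lines, with 3.18, 2.81, 3.47, 3.64 and 2.698 CPM in RET, 2.496, 3.13, 3.37, 2.76 and 3.11 CPM in B16F10 luc2, 2.01, 1.25, 1.82, 2.76 and 2.14 CPM in HCmel12 and 2.11, 1.44, 2.38, 2.06 and 1.81 CPM in D4M. RET and B16F10 luc2 did not differ by the test (log2 fold change of 0.083 ± 0.16 (SE), adjusted p = 0.6999), nor did HCmel12 and D4M (log2 fold change of 0.0019 ± 0.19 (SE), adjusted p = 0.993), and B16F10 luc2 was above HCmel12 (log2 fold change of 0.61 ± 0.17 (SE), adjusted p = 0.00319).

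Hoxd8 (ENSMUSG00000027102.4, chr2:74704615-74707933), a trunk gene, and its neighbour Hoxd9, a gene of the lumbar axis and upper limb, were the D4M genes of this cluster. Hoxd8 had 49.1, 45.7, 41.8, 46.4 and 43.6 CPM in D4M, 4 to 12 counts per library in HCmel12, 2 to 7 in B16F10 luc2, 2 to 3 in RET and none in WT31. D4M exceeded HCmel12, the next line, by a log2 fold change of 7.06 ± 0.21 (SE), adjusted p = 2.12e-20 and WT31 by at least 397-fold. Hoxd9 had 11.4, 9.63, 11.5, 10.4 and 10.2 CPM in D4M and no count in the 20 libraries of the other lines. D4M was therefore at least 93.1-fold higher than WT31, 90.95-fold than RET, 87.9-fold than HCmel12 and 87.6-fold than B16F10 luc2. Hoxd10 was highest in D4M but nearly silent there, at 0.218 TPM and up to 11 counts in a library, and was not tested. Hoxd11 stood at 0.0134 TPM in D4M. Hoxd13 (ENSMUSG00000001819.4, chr2:74668310-74671599), the gene of digits and external genitalia, had 45.4, 40.1, 38.02, 42.001 and 36.7 CPM in HCmel12, 10.99, 9.78, 12.1, 10.8 and 11.5 CPM in B16F10 luc2 and 10.1, 9.59, 10.3, 10.4 and 10.1 CPM in RET. All HCmel12 libraries lay above all others (log2 fold change of 1.87 ± 0.084 (SE), adjusted p = 1.92e-16 against B16F10 luc2), and B16F10 luc2 and RET did not differ by the test (log2 fold change of 0.13 ± 0.10 (SE), adjusted p = 0.312). WT31 and D4M had 2 counts each over 5 libraries. RET exceeded D4M by a fitted log2 fold change of 8.20 ± 0.38 (SE), adjusted p = 1.21e-16, a value that depends on the prior count because D4M is so near 0.

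Pairwise comparisons of the lines share libraries and are therefore given side by side. B16F10 luc2 against RET, the pair with the fewest genes called, had 17 of 24 tested Hox genes higher and 1 lower, where 51.5% of all 15247 genes passed, 25.2% as higher and 26.2% as lower in B16F10 luc2. The gene lower in B16F10 luc2 was Hoxa3. The fitted sizes followed the cluster. On the log2 scale, every tested HoxB member had a fitted difference of at least 1.56, the largest at Hoxb13, Hoxb9 and Hoxb7. No tested HoxA member differed by more than 0.93. RET had no count of Hoxb4 and at most 2 counts of Hoxb7 and Hoxb13 in a library, so these fitted values depend on the prior count. Hoxb4 had only 2 to 6 counts per library in B16F10 luc2, at 0.138 CPM against a floor of 0.117 CPM in RET. Hoxa2, Hoxa4, Hoxa9, Hoxd4, Hoxd9 and Hoxd13 did not pass the test. Of the HoxD genes that did, Hoxd8 rested on 2 to 7 and 2 to 3 counts per library and kept its call in 8 of 25 fits without 1 library, and in HoxC the call of Hoxc4 held in 18 of them.

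**Figure D5:**
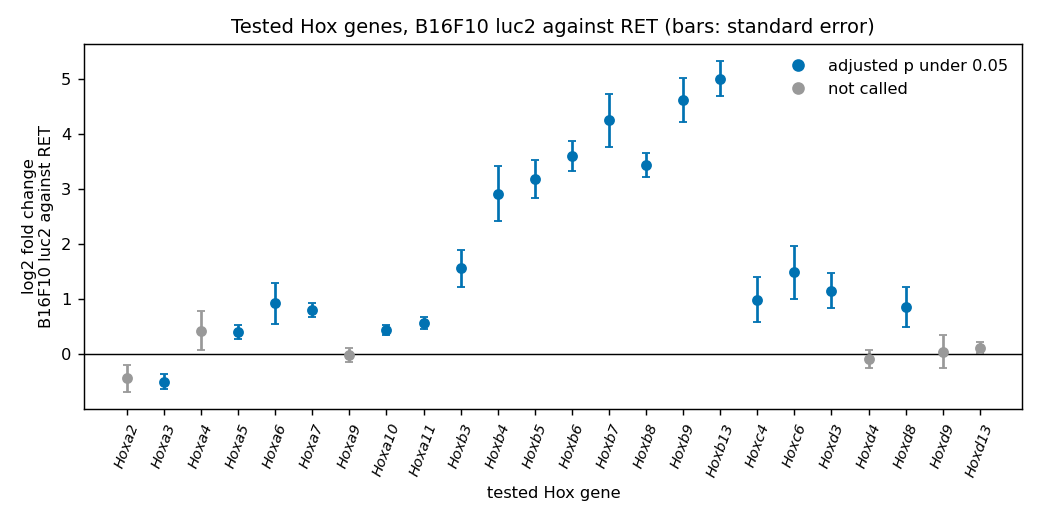
Points are log2 fold changes of B16F10 luc2 against RET (vertical axis) for the 24 tested Hox genes (horizontal axis), bars the standard error, and blue marks an adjusted p under 0.05 by limma. The HoxB genes lie between 1.56 and 5.00 and the HoxA genes between -0.49 and 0.93. RET had at most 2 counts of Hoxb4, Hoxb7 or Hoxb13 in a library, so their values depend on the prior count.

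WT31 was lower than B16F10 luc2 and RET at most tested Hox genes, and was higher and lower at similar numbers of them against D4M and HCmel12. Against B16F10 luc2, 2 of 24 were higher and 21 lower in WT31, where 72.8% of all genes passed (36.4% higher and 36.4% lower), and the 2 higher ones were Hoxa4 and Hoxb9. Against RET, 3 were higher and 17 lower, where 73.2% of all genes passed (36.8% and 36.4%), and Hoxb8 joined the higher ones. The lower ones included Hoxb13, Hoxc4 and Hoxd8, which stayed within the floor of 3 counts per library in both lines. The call of Hoxc4 held in 22 of 25 fits without 1 library. Against D4M, 9 were higher and 11 lower (all genes: 76.1% passed, 37.5% and 38.6%), and against HCmel12, 9 were higher and 8 lower (70.4% passed, 36.1% and 34.3%). With only the 2 lines of the comparison in the fit, fewer members passed the filter. The WT31 calls then fell from 20 to 13 against RET and from 17 to 9 against HCmel12. B16F10 luc2 was higher at 14 and lower at 7 members against D4M (77.7% passed, 38.8% and 38.9%) and higher at 20 and lower at 3 against HCmel12 (69.1% passed, 35.3% and 33.8%). RET was higher at 12 and lower at 10 against D4M (77.1% passed, 38.8% and 38.3%) and higher at 13 and lower at 5 against HCmel12 (67.2% passed, 34.0% and 33.3%). Among the higher ones, Hoxb13 in both comparisons and Hoxc4 against HCmel12 also stayed within that floor in both lines. D4M was higher at 12 and lower at 6 members against HCmel12 (72.5% passed, 36.8% and 35.7%). Scaling by library size alone shifted the median of all genes by 0.15 to 0.23 in the comparisons with D4M and left the direction split of the Hox genes within 10 percentage points. It moved the split of all called genes further, from 49.3% to 62.4% higher in WT31 against D4M and from 50.8% to 39.6% higher in D4M against HCmel12.

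Following the study's grouping, Hox genes were also counted by whether WT31, B16F10 luc2 and RET all differed from a low metastatic line in one direction. In relation to D4M, 15 of 24 did, where 43.9% of all genes did. Among them, 8 were higher in HIM-melanoma (Hoxa2, Hoxa3, Hoxa5, Hoxa7, Hoxa9, Hoxa10, Hoxa11 and Hoxb9) and 7 lower (Hoxb4, Hoxb6, Hoxb7, Hoxc4, Hoxc6, Hoxd8 and Hoxd9). In relation to HCmel12, 8 of 24 did, where 27.8% of all genes did, namely Hoxa2, Hoxa7, Hoxa9, Hoxa10 and Hoxa11 as higher and Hoxd3, Hoxd8 and Hoxd13 as lower in HIM-melanoma. Common to both relations were 6, where 12.9% of all genes were. With only the 2 lines of each comparison in the fit, the 8 in relation to HCmel12 fell to 4 and the 6 common ones to 2. With calls of at least 1 in log2 fold change, the common ones fell to 3. Hoxa2, Hoxa7, Hoxa9, Hoxa10 and Hoxa11 were higher in HIM-melanoma (6.53% of all genes) and Hoxd8 was lower (6.40%). Hoxd8 was high only in D4M, at 45.3 CPM, and nearly silent in HCmel12 too, at 0.339 CPM. The HoxA genes of this set were not equally high within HIM-melanoma: Hoxa10 stood at 44.3 ± 5.27 TPM (n = 5) in B16F10 luc2, 32.3 ± 1.72 TPM (n = 5) in RET and 1.26 ± 0.367 TPM (n = 5) in WT31. Hoxa9 in WT31 rested on 1 to 4 counts per library, and the call of Hoxa2 in WT31 against HCmel12 was lost without WT31 replicate 4, WT31 replicate 5 or HCmel12 replicate 4 (adjusted p up to 0.0798). The call of Hoxd8, the only lower gene common to both relations, was lost in B16F10 luc2 against HCmel12 without B16F10 luc2 replicate 2, B16F10 luc2 replicate 4 or HCmel12 replicate 1 (adjusted p up to 0.0779), which leaves no lower gene in common. With 3 lines in one group and 2 in the other, metastatic grade and line cannot be told apart.

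Several Hox transcripts share sequence with genes annotated inside the clusters, and the counting divided such reads between them. Over sequences of 31 bases, 61.2% of Hoxd3 and 49.1% of Hoxd4 also stood in another gene, chiefly Gm28230, and 52.7% of Hoxb3, chiefly in its antisense gene Hoxb3os, so their levels are uncertain. The share was 33.9% for Hoxa11 with its antisense gene Hoxa11os, 26.0003% for Hoxa3 and 20.5% for Hoxa7, and it was 0% for Hoxa10, Hoxb13 and Hoxd13 and 0.782% for Hoxb9. Genes of the clusters that are no Hox gene had line patterns too. Gm53, a long non-coding gene between Hoxb13 and Hoxb9, had 20.1 ± 1.602 CPM (SD, n = 5) in WT31, 1.09 ± 0.343 CPM in B16F10 luc2 and at most 0.0509 CPM in the other lines. Hoxa11os had 5.4003 ± 0.532 CPM in B16F10 luc2, 4.87 ± 0.986 CPM in RET and 0.434 ± 0.149 CPM in WT31 and no count in D4M and HCmel12. Hotairm1, an antisense transcript at the anterior end of HoxA, had 2.73 ± 0.396 CPM in RET, 1.71 ± 0.3097 CPM in B16F10 luc2, 1.42 ± 0.269 CPM in WT31, 0.831 ± 0.228 CPM in HCmel12 and 0.0704 ± 0.0581 CPM in D4M. Hoxd3os1 stood at 3.85 ± 0.873 CPM in HCmel12 beside 3.69 ± 0.443 CPM in D4M, 2.38 ± 0.371 CPM in B16F10 luc2 and 2.01 ± 0.09598 CPM in RET, without a count in WT31. Whether reads kept their strand is not given in the sources used here, so reads from sequence that a Hox gene shares with its antisense partner cannot be told apart.

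Cofactors and regulators of Hox genes were read from fixed lists beside the share of all genes called, which ran from 51.5% to 77.7% over the 10 comparisons. The 9 TALE homeodomain cofactors, which bind DNA together with Hox proteins, were all tested, and 7 to 9 of them passed in a comparison, in both directions. Meis2 had 117 ± 8.91 CPM in B16F10 luc2, 99.7 ± 23.5 CPM in WT31, 61.99 ± 5.38 CPM in RET, 36.4 ± 2.87 CPM in HCmel12 and 17.8 ± 2.31 CPM in D4M. Pknox2 had 30.4 ± 2.48 CPM in D4M and 1.34 ± 0.259 CPM in B16F10 luc2, while Pknox1 had 53.4 ± 4.41 CPM in B16F10 luc2 and 17.8 ± 2.64 CPM in HCmel12. Pbx3 varied least of the 4 named, from 35.7 ± 3.303 CPM in WT31 to 17.05 ± 2.48 CPM in HCmel12.

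Of 29 Polycomb genes, which keep silent Hox genes silent, 18 to 26 passed in a comparison. Phf19, which brings the PRC2 complex to chromatin, had 50.8 ± 8.51 CPM in B16F10 luc2 and 2.25 ± 0.998 CPM in WT31. Jarid2, another PRC2 partner, ran from 8.08 ± 1.03 CPM in D4M up to 55.4 ± 9.27 CPM in HCmel12, and Epop, which modulates PRC2, had 46.6 ± 6.34 CPM in HCmel12 and 6.35 ± 0.446 CPM in RET. Phc2, a PRC1 subunit, had 361 ± 28.7 CPM in D4M and 99.2 ± 4.49 CPM in RET, and the PRC1 gene Pcgf5 had 20.5 ± 1.79 CPM in D4M and 5.89 ± 0.7302 CPM in B16F10 luc2. Of the 13 Trithorax and demethylase genes, which keep active Hox genes active, 7 to 12 passed. Kmt2a, the methyltransferase MLL that maintains Hox transcription, stood out in D4M at 165 ± 11.9 CPM, against 52.6 ± 8.44 CPM in RET, 42.3 ± 3.86 CPM in B16F10 luc2, 38.6 ± 2.92 CPM in HCmel12 and 33.8 ± 4.47 CPM in WT31. Kmt2d (106 ± 6.68 CPM) and Ash1l (101 ± 12.2 CPM), further methyltransferases, were also highest in D4M, Rbbp5 was highest in HCmel12 (101 ± 6.08 CPM), and the demethylase gene Kdm6b was highest in WT31 (68.2 ± 9.94 CPM).

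Of 21 genes that set up axial Hox domains or handle retinoic acid, a direct inducer of anterior Hox genes, 16 were tested and 8 to 16 passed. All 16 passed in RET against D4M (5 higher and 11 lower in RET) and in D4M against HCmel12 (11 higher and 5 lower in D4M). Crabp1, which binds retinoic acid in the cytoplasm, had 1085 ± 165 CPM in D4M and at most 0.0232 CPM elsewhere. Cyp26b1, which degrades retinoic acid, had 38.5 ± 15.6 CPM in D4M, 12.6 ± 2.67 CPM in RET and 0.0644 ± 0.0611 CPM in HCmel12, and Aldh1a3, which makes it, had 40.2 ± 13.7 CPM in D4M and 1.75 ± 1.26 CPM in WT31. Rarb, a retinoic acid receptor gene that retinoic acid itself induces, was highest in WT31 and lowest in D4M, with 34.3 ± 14.1 CPM in WT31, 9.81 ± 1.405 CPM in B16F10 luc2, 4.02 ± 1.55 CPM in HCmel12, 1.66 ± 0.406 CPM in RET and 0.09696 ± 0.0826 CPM in D4M. Gdf11, a signal that switches on posterior Hox genes, had 125 ± 9.92 CPM in HCmel12, 100.2 ± 11.1 CPM in WT31, 55.6 ± 2.42 CPM in D4M, 29.03 ± 2.897 CPM in B16F10 luc2 and 27.3 ± 4.18 CPM in RET. The differences of D4M in this group move with its marker levels and with its own medium, which cannot be told apart from the line.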

How the data were processed

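RNA of 25 cultures (5 of each of 5 mouse melanoma lines) was sequenced. The authors trimmed reads with Trim Galore 0.6.4 and quantified them against GRCm38.p6 with kallisto, and the annotation release and strandedness are not given in the sources used here. They deposited estimated counts per gene (24.5% to 26.6% of values above 0 not whole) and TPM, of which 24 libraries were used (TPM of D4M replicate 1 is not analysed here). Gene IDs matched GENCODE vM21 for all 38 members. Genes were filtered with filterByExpr (15247 kept), scaled by TMM and fitted with voom and limma 3.58.1 (R 4.3.3), 1 mean per line over all 25 libraries, as a 2-sided moderated test with Benjamini-Hochberg adjustment over all genes and a threshold of 0.05. edgeR 4.0.16 and DESeq2 1.42.0 on rounded counts, other scalings, filters, thresholds and left-out libraries were alternatives. On simulated counts for WT31 against D4M over 15247 genes, voom recovered 94 of 100 genes changed by a log2 fold change of 1 and 99 of 100 changed by 2. The changed genes were drawn from those with a mean over 1 CPM and all others were left unchanged. These rates therefore do not cover Hox genes below that level. Promoter sequences came from RefSeq in GRCm38.p6, and sharing was counted over 31-base words of the transcripts. Replicates are cultures of 1 line each, so p-values describe the spread between cultures. No replicate pair agreed within sampling noise. Intervals and floors cover counting error only. A fold given as at least divides the mean of the higher line by the floor, without allowance for error in that mean.

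All listed members are accounted for; those with a mean of at least 1 TPM in some line are named, with the value of every library in the lines where they reach it and ranges or counts elsewhere (all libraries are in the heat map). Of each regulator list, up to 5 tested genes with at least 10 CPM in a line and the widest range of line means are named, except for a few items that are not reported here. The members and lists were chosen with earlier results of these data known.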

Additional observations from a re-analysis of the deposited data

Results flagged for a closer look

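Of 64 groups of 5 libraries (a tested Hox gene in a line with a mean of at least 10 counts), 2 held a library far from the others by Dixon's ratio, where chance alone gives about 1 in 20. Hoxa2 in B16F10 luc2 was lowest in replicate 4, at 0.825 CPM, with the others between 0.966 and 1.00 CPM. Hoxa6 in RET was highest in replicate 3, at 0.946 CPM, with the others between 0.347 and 0.520 CPM.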

How the results depend on the processing

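Of 200 calls among 240 tests (24 Hox genes in 10 comparisons), 192 kept call and sign with DESeq2, 195 with edgeR, 195 with library size alone, 200 with DESeq2 size factors, 193 with no filter, 176 on log2(TPM + 1) and 188 on log2(TPM + 0.1), and none was called with the other sign in any of them. In fits without 1 library, 186 of the 200 were called every time and 7 further tests were called at least once. Without D4M replicate 1, HCmel12 replicate 4 and RET replicate 4 together, 194 were kept. A filter of at least 10 counts in every library left 10497 genes and no Hox gene, so every count of Hox calls was 0, since each member had a library under 10 estimated counts (Hoxa7 only just, at 9.999997 in 1 HCmel12 library). With only the 2 lines of the comparison in the fit, fewer members passed the filter: 13 were called for WT31 against RET and 9 for WT31 against HCmel12, 4 were uniform in relation to HCmel12 and 2 common. Where calls also had to reach a log2 fold change of 1 in size, they fell to 10 for B16F10 luc2 against RET, 3 common genes, 11 highest-against-next differences (19 by the threshold alone) and 282 of 840 list tests. At 5 TPM, the lines held 1 (WT31), 6 (B16F10 luc2), 4 (RET), 6 (D4M) and 1 (HCmel12) members. The sign of the uncalled Hoxa9 difference of RET against B16F10 luc2 (0.0081) turned without B16F10 luc2 replicate 1, RET replicate 1 or RET replicate 5 and ranged from -0.042 to 0.065. Hoxb5 in B16F10 luc2 against D4M was called with library size alone, with TPM, with only 2 lines in the fit and without B16F10 luc2 replicate 3, WT31 replicate 1, WT31 replicate 3 or HCmel12 replicate 4. The replicate numbers did not pair the libraries: over 50 same-numbered pairs r ran from -0.09 to 0.10, 6 of 25 libraries correlated best with their own number, and the replicate block left 199 of the 200 calls, 18 for B16F10 luc2 against RET and 21 for WT31 against RET. Calls resting on under 10 counts per library in both lines were not counted, and those given here are examples. That of Hoxd8 in B16F10 luc2 against RET held in 8 of the 25 fits without 1 library. That of Hoxc4 in the same comparison held in 18. Those of Hoxa9 in WT31 against D4M and of Hoxb13 in WT31 against RET held in all 25.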

Other observations

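Other genes with a positional pattern in the embryo also differed between the lines. Of 15 trunk and limb genes 9 were tested, and 4 to 9 passed in a comparison, where 51.5% to 77.7% of all genes did. Tbx4, the hindlimb T-box gene, had 38.03 ± 2.399 CPM (SD, n = 5) in B16F10 luc2, 36.9 ± 1.93 CPM in RET and 22.7 ± 1.51 CPM in HCmel12, against 0.391 ± 0.136 CPM in D4M and 0.129 ± 0.06898 CPM in WT31. These are also the 3 lines with at least 1 TPM of Hoxd13, a match noted after the values were seen. Prrx1, a gene of limb and skeletal mesenchyme, had 372 ± 28.03 CPM in D4M and 151 ± 8.82 CPM in WT31 and at most 0.121 CPM in the other lines. Tbx18 had 19.5 ± 2.82 CPM in D4M and at most 0.0749 CPM elsewhere. Tbx15, which patterns dorsal skin, had 14.4 ± 1.48 CPM in RET, 11.2 ± 0.494 CPM in D4M and 8.102 ± 0.424 CPM in B16F10 luc2 and at most 0.137 CPM in WT31 and HCmel12. Shox2 varied less, from 17.9 ± 1.499 CPM in HCmel12 to 3.098 ± 0.539 CPM in D4M.

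Of 16 head genes 8 were tested and 4 to 7 passed in a comparison. Alx1, a gene of the facial neural crest, had 53.4 ± 2.08 CPM in WT31, 52.4 ± 4.88 CPM in HCmel12, 51.9 ± 2.27 CPM in RET, 40.3 ± 2.07 CPM in B16F10 luc2 and 0.1005 ± 0.202 CPM in D4M. Lhx6, a gene of the jaw and forebrain, had 107 ± 8.13 CPM in D4M and at most 0.309 CPM elsewhere. Dlx6, which sets lower jaw identity, had 21.8 ± 1.79 CPM in RET, 11.5 ± 2.56 CPM in B16F10 luc2 and at most 0.0733 CPM in the other lines. How far marker levels or media move with these genes was not tested.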
